A study of Mus musculus with 9 samples.

Results

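The Ly6 surface proteins described here are the products of 6 mouse genes, *Ly6a*, *Ly6c1*, *Ly6c2*, *Ly6e*, *Ly6i* and *Ly6g*, which were chosen by gene symbol among the 55471 genes counted. They were measured by RNA sequencing of bone marrow-derived DCs in 9 libraries, 3 from unstimulated cells, 3 from LPS-activated cells and 3 from IFN-β-treated cells. All groups were WT cells from bone marrow of C57BL/6 mice cultured with GM-CSF, and per the study's methods the mice were females of 8 to 20 weeks. LPS, a component of the bacterial outer membrane, was given at 100 ng/mL and IFN-β, a type I interferon, at 1000 U/mL, each for 6 h. The libraries of each group carry the letters A, B and C. The labels do not say that they came from separate cultures or animals, so p-values measure only the spread between these libraries.

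Ly6 proteins are small molecules of the Ly6/uPAR family, whose domain of disulfide-bonded loops is held to the outer face of the cell membrane by a GPI anchor. Several of them are used by immunologists as antibody markers of cell types, and the transcription of some family members is known to respond to interferons. *Ly6a* encodes Sca-1, a marker of hematopoietic stem cells, and *Ly6c1* and *Ly6c2* encode the Ly6C antigen, whose high level marks inflammatory monocytes. *Ly6g* encodes the neutrophil antigen recognized by the antibody against Gr-1, *Ly6e* encodes a broadly expressed protein that restricts the entry of some viruses, and *Ly6i* is a close relative of *Ly6a*.

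The 6 genes lie within 204.1 kb of chromosome 15 (GRCm38), in the order *Ly6e*, *Ly6i*, *Ly6a*, *Ly6c1*, *Ly6c2* and *Ly6g*. *Ly6e* (ENSMUSG00000022587) occupies chr15:74955051-74959905 on the plus strand, and *Ly6g* (ENSMUSG00000022582) occupies chr15:75155240-75159126 on the same strand. Between them, on the minus strand, are *Ly6i* (ENSMUSG00000022586, chr15:74979534-74983430), *Ly6a* (ENSMUSG00000075602, chr15:74994877-74998031), *Ly6c1* (ENSMUSG00000079018, chr15:75044018-75048830) and *Ly6c2* (ENSMUSG00000022584, chr15:75108158-75111970). No exon of any member overlaps an annotated exon of another gene. The annotated coding sequences are 396 to 411 bases long, and the member least like the others was *Ly6e*, which was identical to them at 58.8% to 60.8% of aligned bases. *Ly6a* and *Ly6i* were identical at 86.4% of bases.

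**Figure D1:**
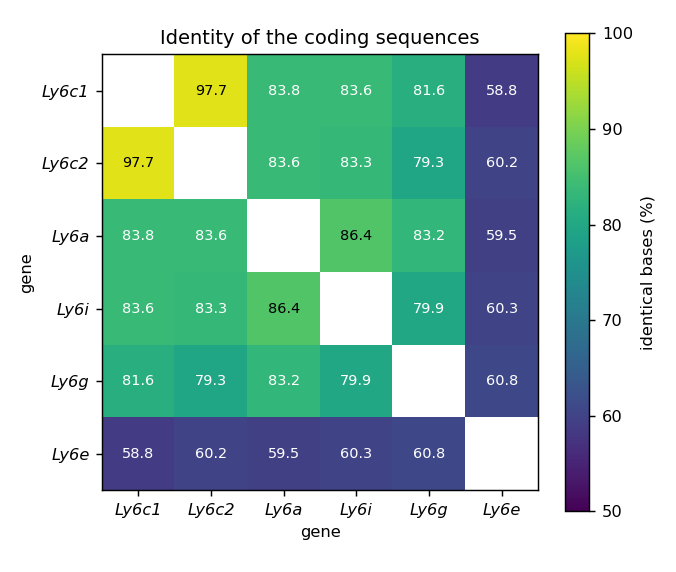
Percent of identical bases between the aligned coding sequences of each pair of Ly6 genes (rows and columns are genes, colour and number give the percent). *Ly6c1* and *Ly6c2* are 97.7% identical, and the *Ly6e* row and column hold the lowest values, 58.8% to 60.8%.

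*Ly6c1* and *Ly6c2* have coding sequences of 396 bases each, of which 9 differ (97.7% identical). They are printed here to show how alike these genes are, since their counts were far apart. The first 300 bases of each coding sequence are taken from the gene's annotated transcript (GENCODE M21, GRCm38), in which the exons are joined. They run 5′ to 3′ on the coding strand, and capitals mark the 7 bases that differ within them.
Ly6c2: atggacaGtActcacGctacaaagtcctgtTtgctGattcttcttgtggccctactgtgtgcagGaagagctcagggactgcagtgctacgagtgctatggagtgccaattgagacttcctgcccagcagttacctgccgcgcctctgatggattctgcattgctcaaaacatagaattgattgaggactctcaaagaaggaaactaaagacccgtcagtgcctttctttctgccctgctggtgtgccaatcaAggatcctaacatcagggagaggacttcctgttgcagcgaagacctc
Ly6c1: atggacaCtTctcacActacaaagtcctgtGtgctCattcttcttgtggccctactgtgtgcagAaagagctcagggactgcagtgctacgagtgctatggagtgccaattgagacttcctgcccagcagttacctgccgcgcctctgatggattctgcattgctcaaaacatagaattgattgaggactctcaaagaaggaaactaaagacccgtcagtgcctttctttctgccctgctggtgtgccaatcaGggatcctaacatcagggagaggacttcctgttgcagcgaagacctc
Counted from 1 at the first base of the start codon, the first difference is at base 8 and the last at base 376. Of the 9 differences, 6 are in the first 65 bases, and the longest stretch without any is 188 bases. Reads were pairs of 100 bases, and 114 of the 723 possible 100-base words of the *Ly6c2* transcript (15.8%) also occur in *Ly6c1*, which is 15.3% of the 745 words of *Ly6c1*. None of the 100-base words of the principal transcripts of the 4 other members occurs in another gene's transcripts.

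Counts assigned to genes ranged from 33425803 to 43735199 per library, and values are given as CPM, the count relative to the TMM-scaled size of its library. The floor was set at 3 counts per library, which is 0.0674 to 0.106 CPM. The filter on low counts kept 16260 genes for testing. *Itgax*, which encodes the DC integrin CD11c, was at 1359 to 1673 CPM in every library. The 10 DC markers listed summed to 5390 to 6520 CPM in unstimulated cells, 7510 to 8510 in LPS-activated cells and 6130 to 6470 in IFN-β-treated cells. Within that list *Cd209a* was at 0.361 CPM or less and *Flt3* at 1.88 to 4.99 CPM, and each of the others was at 27.8 CPM or more in every library. Lymphocyte markers summed to at most 0.456 CPM and mast cell, basophil and erythroid markers to at most 0.276 CPM. The 5 plasmacytoid DC markers listed summed to 36.7 to 44.5 CPM in unstimulated cells, 210 to 255 with LPS and 73.6 to 95.9 with IFN-β, nearly all of it from *Tcf4*, while *Siglech* had 0 counts in 7 of the 9 libraries. RNA came from whole cultures, so fewer cells of a type and less RNA per cell cannot be told apart.

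Libraries with the same letter deviated together from their group means. The correlation of these deviations across all tested genes was 0.134 to 0.546 in the 9 same-letter pairs and -0.48 to 0.062 in the 18 pairs with different letters. Subtracting the group means ties these ranges to each other. The letters were therefore taken to pair the libraries, and values from a fit with the letter as a block are given beside the main fit, which has none, where a call changes.

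Of the 6 genes, 4 were expressed well above the floor in all groups, with at least 901 counts in each library. They were *Ly6e*, *Ly6a*, *Ly6c2* and *Ly6i*. *Ly6c1* and *Ly6g* had at most 10 counts in any library. In LPS-activated cells *Ly6c2* rose 2.79-fold and *Ly6i* 2.41-fold, and in IFN-β-treated cells *Ly6c2*, *Ly6i* and *Ly6e* rose 2.19-fold, 2.13-fold and 1.67-fold. *Ly6a* had the highest ratio of IFN-β to unstimulated among the members, 3.15-fold, with a wide spread between libraries. It passed the threshold with the letters in the model but not in the main fit, which has none.

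**Figure D2:**
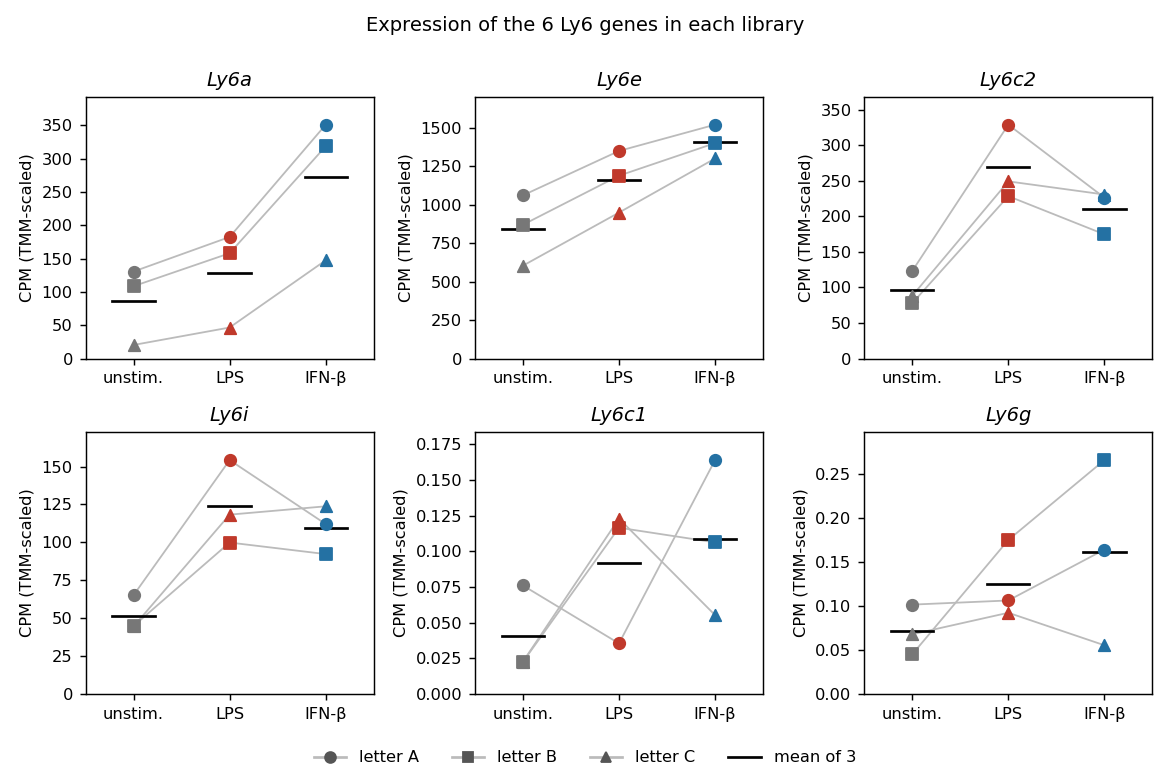
CPM of each Ly6 gene (vertical axes, linear and starting at 0, with a different scale in each panel) in unstimulated, LPS-activated and IFN-β-treated libraries. Point shapes and grey lines follow the letters A, B and C, and black bars are means of 3 libraries. *Ly6a* is lowest in the letter C library of every group, *Ly6c2* and *Ly6i* are higher in every treated library than in every unstimulated library, and *Ly6c1* and *Ly6g* stay below 0.3 CPM.

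*Ly6e* had the highest counts of the 6. Its level in the A, B and C libraries was 1062, 871 and 604 CPM in unstimulated cells, 1351, 1190 and 950 CPM in LPS-activated cells and 1522, 1402 and 1302 CPM in IFN-β-treated cells. It made up 67.0% to 79.8% of the summed counts of the 6 genes. Every IFN-β library was above every unstimulated library, while the LPS library C was below the unstimulated library A. The group means were 846 ± 230 CPM (SD, n = 3) in unstimulated cells, 1164 ± 202 with LPS and 1409 ± 110 with IFN-β. The log2 fold change with IFN-β was 0.74 ± 0.19 (SE), with an adjusted p of 0.00877 after Benjamini-Hochberg adjustment in edgeR's quasi-likelihood test. With LPS it was 0.46 ± 0.19 with an adjusted p of 0.0504 in that edgeR test, and it turned to -0.12 when libraries were scaled by their totals only. With the letters as a block the LPS value was 0.48 ± 0.09 with an adjusted p of 0.000322 in edgeR. Within letters A, B and C the LPS library was higher than the unstimulated library by 0.35, 0.45 and 0.65 on the log2 scale. These values and the block used TMM scaling. Relative to library totals, *Ly6e* was lower with LPS than without in letters A and B and higher in letter C. Without a block the LPS comparison of *Ly6e* passed the threshold when the unstimulated library A (adjusted p = 0.00897, edgeR) or the LPS library C (adjusted p = 0.0249, edgeR) was left out. Leaving out the unstimulated library C or the LPS library A lowered the value to 0.26 (adjusted p = 0.151, edgeR) and 0.34 (adjusted p = 0.167, edgeR).

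*Ly6a* was at 131, 109 and 20.3 CPM in the unstimulated libraries A, B and C. It was at 183, 158 and 46.5 CPM in the LPS libraries and at 351, 319 and 147 CPM in the IFN-β libraries. The letter C library was the lowest of its group each time, at 17.0%, 27.3% and 44% of the mean of A and B. The unstimulated and LPS groups overlapped, whereas the lowest IFN-β library was above the highest unstimulated library. Group means were 86.5 ± 58.4 CPM (SD, n = 3), 129 ± 72.5 with LPS and 272 ± 109 with IFN-β.

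The log2 fold change of *Ly6a* with IFN-β was 1.66 ± 0.64 (SE), with an adjusted p of 0.0555 in the same quasi-likelihood test of edgeR. With the letters as a block it was 1.92 ± 0.19 with an adjusted p of 1.3e-06 in edgeR. With LPS it was 0.58 ± 0.63 (adjusted p = 0.435, edgeR) without the block and 0.69 ± 0.18 (adjusted p = 0.00409, edgeR) with it, and it was near 0 (-0.002) when libraries were scaled by their totals only. On TMM-scaled values *Ly6a* was higher with either stimulus than without in every letter. The log2 differences for IFN-β were 1.42, 1.55 and 2.83 in letters A, B and C, and those for LPS were 0.48, 0.54 and 1.18. Relative to library totals, *Ly6a* was lower with LPS than without in letters A and B and higher only in letter C. The block was fitted with TMM scaling only. Leaving out the unstimulated library A, the LPS library C or the IFN-β library C in the fit without a block brought the adjusted p for IFN-β to 0.0447, 0.0373 and 0.0427 in edgeR, and leaving out the unstimulated library C brought the LPS value to 0.10. Without the 3 letter C libraries, an alternative chosen after their *Ly6a* values were seen, *Ly6a* rose by 1.49 ± 0.12 with IFN-β (adjusted p = 9.24e-05, edgeR) and by 0.51 ± 0.12 with LPS (adjusted p = 0.0056, edgeR) on the log2 scale.

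The gap of *Ly6a* between letter C and the mean of A and B was -2.52, -1.86 and -1.18 on the log2 scale in the unstimulated, LPS and IFN-β groups. Only 17 of the 16260 tested genes (0.105%, *Ly6a* included) had a gap of one sign at least as large as 1.18 in all 3 groups, and of the 16 others 11 were lower and 5 higher in letter C. Those lower in C included *S100a9*, a neutrophil and monocyte gene, with gaps of -1.44, -1.47 and -1.43, *F13a1*, a monocyte and macrophage gene, with -1.47, -1.80 and -1.69, and *Epx*, which encodes eosinophil peroxidase, with -1.60, -1.35 and -1.48. The others lower in C were *Hpgds*, *Gm42031*, *Arhgef10l*, *Adgrb1*, *Xlr3b*, *Fcna*, *Eef1a2* and *Slc28a2*. The 5 higher in C were *Retnla*, with gaps of 1.93, 1.89 and 2.09, *H4c17*, *Cbln1*, *Klk1b9* and *Gm2694*. The genes of this comparison between letters were named after their values were seen. *Ly6e* had gaps of -0.67, -0.42 and -0.17, and *Ly6c2* and *Ly6i* did not keep one sign. The 12 interferon-induced genes listed summed to 1050, 793 and 377 CPM in the unstimulated libraries A, B and C. Their sums were 36617, 28411 and 30014 CPM in the LPS libraries and 13567, 10995 and 12568 CPM in the IFN-β libraries, where letter B was the lowest of both groups. The 12 neutrophil markers listed summed to 522, 385 and 468 CPM in the unstimulated libraries, 650, 465 and 492 in the LPS libraries and 506, 374 and 441 in the IFN-β libraries. Within that list *S100a9*, *Ngp*, *Ltf* and *Csf3r* were each lowest in letter C in all 3 groups, with *Csf3r* at 33.1, 13.4 and 8.73 CPM in the unstimulated libraries A, B and C. *Mmp8* and *S100a8* were instead each lowest in letter B in all 3 groups, with *S100a8* at 13.2, 6.85 and 10.0 CPM in the unstimulated libraries. *Lcn2* and *Camp* were lowest in letter B without stimulation and with LPS, and in letter C with IFN-β. *Cxcr2* was lowest in a different letter in each group. The part of these values in the *Ly6a* gap was not tested.

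*Ly6c2* was at 123, 77.8 and 88.1 CPM in the unstimulated libraries A, B and C, at 329, 228 and 249 CPM in the LPS libraries, and at 226, 175 and 231 CPM in the IFN-β libraries. All 6 treated libraries were above all 3 unstimulated ones, and the LPS and IFN-β groups overlapped. Group means were 96.3 ± 23.7 CPM (SD, n = 3), 269 ± 53.0 with LPS and 211 ± 31.1 with IFN-β. The log2 fold change was 1.48 ± 0.19 (SE) with LPS, with an adjusted p of 4.03e-05 in the same quasi-likelihood test of edgeR. It was 1.13 ± 0.19 with IFN-β, with an adjusted p of 0.000669 in the same edgeR test. Without the letter C libraries these values were 1.47 and 0.998 on the log2 scale. The 10 macrophage and monocyte markers listed also changed in sum, from 2040 to 2580 CPM without stimulation to 4150 to 4770 CPM with LPS and 3110 to 3630 CPM with IFN-β. Of these 10, 4 rose and 5 fell with LPS, and 3 rose and 0 fell with IFN-β in edgeR's test. Of all tested genes, 32.8% and 35.4% were called higher and lower with LPS, and 23.6% and 23.3% with IFN-β. With LPS the sum moved mostly with *Vcan*, at 130 to 171 CPM without stimulation, 2271 to 2414 CPM with LPS and 621 to 828 CPM with IFN-β, and the median log2 fold change of the 10 was -0.81 with LPS and 0.01 with IFN-β. *Ccr2*, the chemokine receptor of inflammatory monocytes, fell by 1.87 with LPS on the log2 scale (adjusted p = 1.06e-05, edgeR) and was at -0.03 with IFN-β (adjusted p = 0.904, edgeR). None of the 10 was at or under the floor in a group, and their part in the *Ly6c2* change was not tested.

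*Ly6i* followed *Ly6c2* closely at a lower count. It was at 65.1, 44.8 and 44.5 CPM in the unstimulated libraries A, B and C, at 154, 99.9 and 118 CPM in the LPS libraries, and at 112, 92.3 and 124 CPM in the IFN-β libraries. Again every treated library was above every unstimulated one. Group means were 51.5 ± 11.8 CPM (SD, n = 3), 124 ± 27.7 with LPS and 109 ± 16.0 with IFN-β. Its log2 fold change was 1.27 ± 0.19 (SE) with LPS, with an adjusted p of 0.000127 in edgeR's quasi-likelihood test. With IFN-β it was 1.09 ± 0.19, with an adjusted p of 0.000845 in the same edgeR test. Across the 9 libraries the log2 level of *Ly6i* had a Pearson correlation of 0.99 with that of *Ly6c2*, and that of *Ly6a* had 0.93 with that of *Ly6e*. *Ly6a* and *Ly6c2* had 0.45. The points share the 3 conditions and the letters, and these correlations are a description.

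Counted over the 4 tested members, LPS raised 2 and lowered 0, beside 32.8% of all tested genes called higher and 35.4% called lower. IFN-β raised 3 and lowered 0, beside 23.6% of all tested genes called higher and 23.3% called lower. With the letters as a block all 4 were higher with LPS, beside 35.4% of genes, and all 4 with IFN-β, beside 27.9% of genes. The median log2 fold change of the 4 members was 0.92 with LPS and 1.11 with IFN-β, against -0.04 and -0.02 over all tested genes. Groups did not overlap for 2 of the 4 members with LPS, where 72.4% of all tested genes did not overlap, and for 4 of the 4 with IFN-β, where that share was 58.1%. Both comparisons use the same 3 unstimulated libraries. Scaling by library totals only moved the median of all tested genes to -0.62 with LPS and -0.32 with IFN-β. Under that scaling *Ly6c2* and *Ly6i* were still higher with LPS, by 0.90 and 0.69 on the log2 scale. The member calls, all higher, numbered 2 with LPS and 3 with IFN-β, beside 17.1% and 13.2% of all tested genes called higher. The block was not fitted under that scaling.

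**Figure D3:**
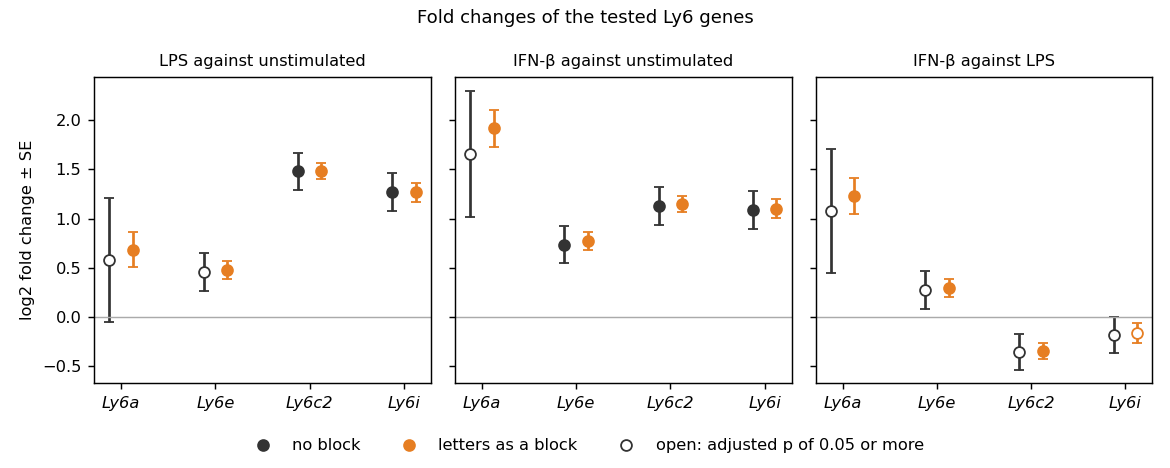
Log2 fold change (vertical axis, points) with its SE (bars) of the 4 tested Ly6 genes in the 3 comparisons, without a block (black) and with the letters as a block (orange). Filled points passed an adjusted p of 0.05 in edgeR's test and open points did not. *Ly6c2* and *Ly6i* are the highest points with LPS, *Ly6a* is the highest with IFN-β, and the bars of *Ly6a* are the longest without the block. With scaling by library totals only, *Ly6a* and *Ly6e* with LPS (-0.002 and -0.12) and *Ly6i* between the stimuli (0.10) change sign.

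Whether the stimuli differed from each other was tested directly, as IFN-β against LPS. In the main fit, without a block, 0 of the 4 tested members passed the threshold in edgeR, beside 49.1% of all tested genes. DESeq2 also called 0 of the 4, and 0 had an unadjusted p under 0.05 in edgeR. The log2 differences were 1.08 ± 0.63 (SE) for *Ly6a*, 0.28 ± 0.19 for *Ly6e*, -0.35 ± 0.18 for *Ly6c2* and -0.18 ± 0.18 for *Ly6i*, and the last was 0.10 when libraries were scaled by their totals only. Groups overlapped for each of the 4, while 56.8% of all tested genes did not overlap. With the letters as a block 3 members were called, beside 58.0% of all tested genes. In that fit *Ly6a* was higher with IFN-β than with LPS by 1.23 ± 0.18 (adjusted p = 5.87e-05, edgeR) and *Ly6e* by 0.29 ± 0.09 (adjusted p = 0.0142, edgeR). *Ly6c2* was lower, at -0.34 ± 0.08 (adjusted p = 0.00262, edgeR), and *Ly6i* was at -0.16 ± 0.10 (adjusted p = 0.169, edgeR). Within letters A, B and C the IFN-β library differed from the LPS library by 0.94, 1.01 and 1.65 for *Ly6a*, by 0.17, 0.24 and 0.45 for *Ly6e*, and by -0.54, -0.39 and -0.11 for *Ly6c2* on the log2 scale. *Ly6i* did not keep one sign, with -0.46, -0.11 and 0.07. These differences used TMM scaling, and relative to library totals *Ly6c2* was higher with IFN-β than with LPS in letter C. Without the letter C libraries, 1 member was called, *Ly6a* at 0.98 ± 0.12 (adjusted p = 0.000365, edgeR).

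Levels can be compared between genes only per length. Per kb of merged exons, the unstimulated means were 223 CPM for *Ly6e*, 71.8 for *Ly6a*, 44.5 for *Ly6i* and 35.2 for *Ly6c2*. The merged exons of *Ly6c2* include an annotated transcript that keeps an intron. Per kb of the principal transcript, *Ly6e* was again first with 371 ± 101 CPM (SD, n = 3), followed by *Ly6c2* with 117 ± 28.9, *Ly6a* with 90.6 ± 61.1 and *Ly6i* with 44.5 ± 10.2, and on this scale *Ly6c2* and *Ly6a* differed by less than the SD of *Ly6a*. With LPS the values per kb of transcript were 510 ± 88.5 for *Ly6e*, 327 ± 64.5 for *Ly6c2*, 135 ± 75.9 for *Ly6a* and 107 ± 23.9 for *Ly6i*, the last pair within the SD of *Ly6a*. With IFN-β *Ly6e* was at 618 ± 48.3, *Ly6a* at 285 ± 115, *Ly6c2* at 256 ± 37.9 and *Ly6i* at 94.6 ± 13.8, and *Ly6a* and *Ly6c2* were again within the SD of *Ly6a*.

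*Ly6g*, the gene of the defining neutrophil antigen, had 4, 2 and 3 counts in the unstimulated libraries A, B and C, 3, 6 and 3 in the LPS libraries, and 7, 10 and 2 in the IFN-β libraries. It did not pass the filter of the main fit. In DESeq2 and in edgeR without a filter it was not called in any comparison, and at this depth no difference between groups was detectable. Of the 12 neutrophil markers listed, *Elane*, *Mpo* and *Retnlg* were also too low to be tested, at 0.138 CPM or less in each library. The 9 others were tested, and 3 rose and 2 fell with LPS, while 0 rose and 1 fell with IFN-β. Shares of all tested genes called higher and lower were 32.8% and 35.4% with LPS and 23.6% and 23.3% with IFN-β. *Lcn2* and *Camp*, which encode granule proteins, rose 48.8-fold and 12.1-fold with LPS, to 152 to 186 CPM and 0.612 to 1.31 CPM. *Csf3r* rose 4.33-fold with LPS. *Cxcr2* and *Mmp8*, which encodes a collagenase, fell to 0.101-fold and 0.645-fold with LPS. The fall of *Cxcr2* was from 27 to 29 counts per unstimulated library to 2 in each LPS library, which is under the floor. *Cxcr2* also fell with IFN-β, to 0.436-fold. *Mmp8* was at 236 to 460 CPM over all libraries.

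*Ly6c1*, the near copy of *Ly6c2*, had 3, 1 and 1 counts in the unstimulated libraries, 1, 4 and 4 in the LPS libraries, and 7, 4 and 2 in the IFN-β libraries. It did not pass the filter either. Over the 3 comparisons of both low genes, the smallest adjusted p was 0.299 in DESeq2 and 0.278 in edgeR without a filter. Its share of the counts of both Ly6C genes was between 0.0108% (95% exact binomial interval 0.000272% to 0.0599%, LPS library A) and 0.0724% (0.0291% to 0.149%, IFN-β library A), intervals that cover counting error only. The log2 ratio of *Ly6c2* to *Ly6c1*, with 0.5 added to each count, was 10.33 to 12.60 in the 9 libraries. It differed between groups by 0.41 for LPS against unstimulated, -0.14 for IFN-β against unstimulated and -0.54 for IFN-β against LPS. The two-sided exact permutation tests gave p = 0.8, 0.9 and 0.5 for these 3 differences, each 0.9 after Benjamini-Hochberg adjustment, and the smallest p that 3 libraries against 3 allow is 0.1. The signs rested on single libraries with 1 to 7 *Ly6c1* counts, as the LPS difference was -0.20 without the LPS library A, and the IFN-β difference from unstimulated was 0.12 without the IFN-β library A. Per the study's methods, counts came from the GeneCounts mode of STAR, which leaves out reads that map equally well to several places, so reads that match both genes equally are in neither count.

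The interval from *Ly6e* to *Ly6g* holds 13 annotated genes, of which 9 were tested. Apart from the members these were pseudogenes, a noncoding RNA gene and an unclassified gene model. *Ly6a2*, a transcribed pseudogene between *Ly6c2* and *Ly6g*, had 170 to 538 counts per library. Its log2 fold change was 0.90 with IFN-β (adjusted p = 0.0134, edgeR) and 0.45 with LPS (adjusted p = 0.146, edgeR). *Gm5960*, a pseudogene with at most 23 counts in a library, rose by 3.16 with LPS (adjusted p = 5.6e-05, edgeR) and by 1.85 with IFN-β (adjusted p = 0.00874, edgeR) on the log2 scale. *Gm28068*, *Gm37042* and *Gm8000*, with at most 27, 20 and 39 counts in a library, had log2 fold changes of 2.24, 1.71 and 1.52 with LPS, each past the threshold in edgeR. Between *Ly6c1* and *Ly6c2*, only *Gm5960* had any counts.

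**Figure D4:**
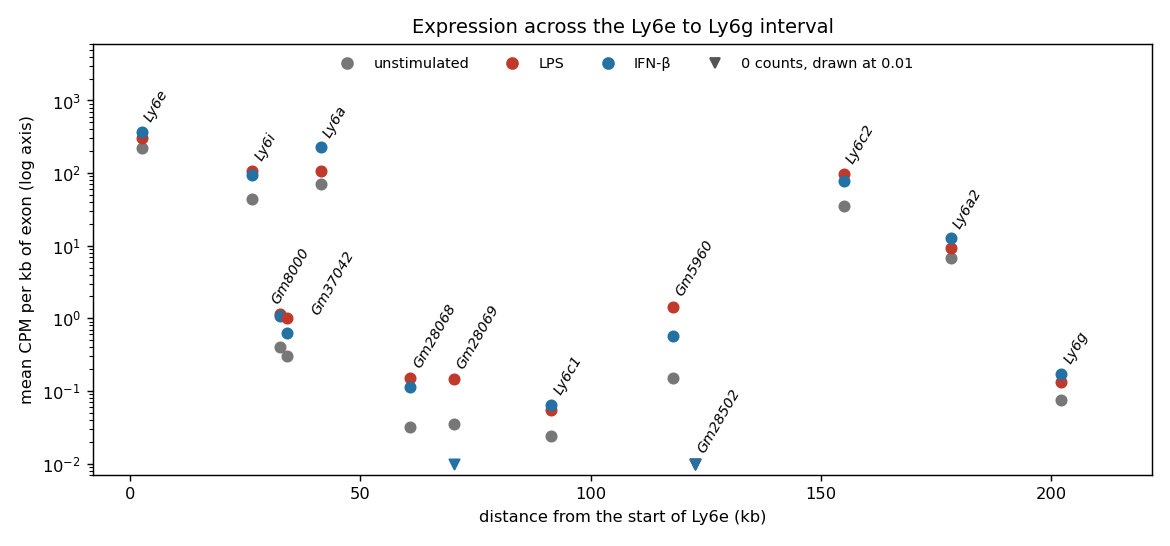
Mean CPM per kb of merged exon (vertical log axis) of each gene annotated from *Ly6e* to *Ly6g*, placed by its distance from the start of *Ly6e* in kb, in unstimulated (grey), LPS-activated (red) and IFN-β-treated (blue) cells. Triangles mark genes with 0 counts in a group, drawn at 0.01. The 4 well expressed members lie at 35.2 CPM per kb or above, *Ly6a2* lies between 6.78 and 12.6, and *Ly6c1* and *Ly6g* lie at 0.172 or below.

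Of 35 other genes of the Ly6/uPAR family, 6 were tested. LPS raised 2 and lowered 1, beside 32.8% of all tested genes called higher and 35.4% lower. IFN-β raised 2 and lowered 0, beside 23.6% and 23.3% of all tested genes. *Ly6m* rose by 2.29 with LPS (adjusted p = 1.65e-05, edgeR) and by 1.35 with IFN-β (adjusted p = 0.002, edgeR) on the log2 scale. *Plaur*, the urokinase receptor, rose by 0.18 (adjusted p = 0.0447, edgeR) and 0.36 (adjusted p = 0.0022, edgeR), and *Cd59a*, an inhibitor of complement, fell by 1.56 with LPS (adjusted p = 0.0134, edgeR).

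All 29 listed genes of GPI anchor synthesis and attachment, the machinery that holds Ly6 proteins to the membrane, were tested. LPS raised 5 and lowered 15, with a median of -0.31 over the list, beside 32.8% of all tested genes called higher and 35.4% lower. IFN-β raised 3 and lowered 10, with a median of -0.07, beside 23.6% and 23.3% of all tested genes. The largest changes with LPS were those of *Pigv*, a mannosyltransferase of the pathway, at 1.92 ± 0.10 (SE), *Pgap2*, which remodels the lipid of the anchor, at 1.54 ± 0.10, and the mannosyltransferases *Pigb* at -1.15 ± 0.08 and *Pigz* at -1.09 ± 0.24. With IFN-β the largest were *Pgap2* at 0.85 ± 0.10, *Mppe1* at 0.65 ± 0.11, *Pigyl* at -0.62 ± 0.13 and *Pigv* at 0.61 ± 0.10. Each of these passed the threshold in edgeR.

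For scale, all 12 listed interferon-induced genes rose with both stimuli, beside 32.8% of all tested genes called higher with LPS and 23.6% with IFN-β. The 12 had a median log2 fold change of 5.14 with LPS and 4.06 with IFN-β. The largest changes with LPS were 9.62 for *Cxcl10*, 8.05 for *Rsad2*, 6.57 for *Ifit2* and 6.47 for *Ifit1*, and the same 4 genes had 7.04, 6.22, 5.59 and 4.93 with IFN-β. No tested Ly6 member changed by more than 1.66 on this scale in either comparison of the main fit. Of the 12, 8 were lower with IFN-β than with LPS in edgeR's test, beside 49.1% of all tested genes called in either direction. The list was chosen with earlier results of these data known.

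The tested genes with the log2 profile most like each member over the 9 libraries were named by Pearson correlation. They were *Os9*, *Cars* and *Hmcn2* for *Ly6a* (0.969, 0.965 and 0.956), *Shisa5*, *Grn* and *Hpcal1* for *Ly6e* (0.988, 0.979 and 0.977), *Abca1*, *Slc39a1* and *Ly6i* for *Ly6c2* (0.992, 0.991 and 0.990), and *Slc6a6*, *Ly6c2* and *Itm2c* for *Ly6i* (0.992, 0.990 and 0.988). *Ly6c2* and *Ly6i* were thus each among the 3 genes most like the other.

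RefSeq promoter windows of 300 bases (GRCm38.p6, 250 before and 50 after a start) were read for *Ly6c1*, *Ly6c2* and *Ly6g*. They were searched on both strands for GAAA followed after any pair of bases by GAAA, the core of the interferon-stimulated response element, for TTCNNNGAA, a STAT site, and for GGG followed after any pair of bases by TTTCC, an NF-κB site. None of these letters were found in any window of the 3 genes, where 3.44%, 8.3% and 1.63% of all 32851 windows held them. Of the 3 genes, only *Ly6c2* was expressed well enough to be tested. *Ly6a*, *Ly6e* and *Ly6i* had 0 windows in this set, so their promoters were not searched.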

How the data were processed

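RNA of the 9 libraries was depleted of ribosomal RNA, made into libraries with a KAPA kit and sequenced as 100-base read pairs. The authors trimmed reads with Trim Galore (0.6.0 in the submitters' processing notes) and mapped them with STAR (2.7.8a in those notes, another version in the paper's methods) to GRCm38, counting with its GeneCounts mode. The table the authors deposited holds raw counts, unnormalized and unfiltered, on a GENCODE release earlier than the M21 release used here for coordinates and lengths. The strand setting of the counting is not given in the sources used here.

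Counts were filtered by filterByExpr (minimum count 10) and scaled by TMM in edgeR 4.0.16 (R 4.3.3). Following the paper's methods, 1 model over all 9 libraries was tested by quasi-likelihood F-tests. Benjamini-Hochberg adjustment ran over the 16260 genes that were tested, with a threshold of 0.05. A standard error is the fold change divided by the square root of F. Library log2 values used 0.5 CPM as pseudocount. The fit was checked on simulated counts of independent libraries without a letter effect, so the check did not cover the pairing. Same-letter libraries had residual correlations over 0.1 in every pair, so the letters were taken as pairs, on the data alone.

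All 6 members were named, with the 3 tested genes most like each in profile and up to 4 genes with the largest changes past the threshold in each gene list. The genes of the interval, those with letter gaps and single markers were named outside this rule, after their values were seen. The members and lists were chosen with earlier results of these data known. Alternatives were DESeq2 1.42.0, scaling by library totals or upper quartiles, no filter or a stricter one, the compared groups alone, *Ly6c1* and *Ly6c2* summed, the letters as a block, each library left out, and a pseudocount of 1 for the *Ly6c2* to *Ly6c1* ratio. The fit without the letter C libraries was chosen after seeing the data. Coding sequences were aligned with Biopython 1.88. Counting intervals cover counting error only.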

Additional observations from a re-analysis of the deposited data

Results flagged for a closer look

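With the letters as a block, 3 of the 4 tested Ly6 genes differed between the IFN-β and LPS responses in a direct edgeR test. The same fit called 58.0% of all tested genes in this comparison. The log2 difference was 1.23 for *Ly6a*, higher with IFN-β in all 3 letters, 0.29 for *Ly6e*, higher with IFN-β in all 3 letters, and -0.34 for *Ly6c2*, lower with IFN-β in all 3 letters. The comparisons within letters are on TMM-scaled values. Relative to library totals, *Ly6c2* was higher with IFN-β than with LPS in letter C. In the main fit, without the block, none of these 3 genes passed the threshold.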

How the results depend on the processing

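With the replicate block of the paired letters, the number of Ly6 members changed was 4 with LPS, 4 with IFN-β and 3 between the stimuli, against 2, 3 and 0 without it. Without the 3 letter C libraries, chosen after seeing the data, these counts were 4, 4 and 1. Over all tested genes the shares called in either direction were 73.5%, 56.3% and 58.0% with the block, against 68.2%, 46.9% and 49.1% without it. Between the stimuli, 2 members were called with no filter on low counts and 1 with scaling by library totals only. Under the latter scaling 55.5% of all tested genes were called between the stimuli. Shares over all genes were not computed for the fits without the filter or without letter C. With no filter, *Ly6a* with IFN-β (adjusted p = 2.03e-05, edgeR) and *Ly6e* with LPS (adjusted p = 0.00245, edgeR) also passed the threshold. Leaving out 1 library gave 2 to 3 calls with LPS, 3 to 4 with IFN-β and 0 to 0 between the stimuli. *Ly6c2* and *Ly6i* stayed past the threshold with both stimuli in each of the 9 fits without 1 library and each other alternative run. With scaling by library totals only, the LPS change was -0.002 for *Ly6a* and -0.12 for *Ly6e*, and the difference between the stimuli was 0.10 for *Ly6i*. DESeq2 called *Ly6e* with LPS (adjusted p = 0.0216). The *Ly6c2* to *Ly6c1* log2 ratio, without 1 library, ranged over -0.20 to 0.72 for LPS, -0.56 to 0.12 for IFN-β and -0.97 to 0.06 between the stimuli. Its IFN-β difference was 0.03 with a pseudocount of 1. The cause of these changes was not tested. The exact test of this ratio could not reach p = 0.05 with 3 libraries against 3, and *Ly6c1* and *Ly6g* are limited by depth.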
